A study of Mus musculus with 11 samples.

Results

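The binding sites called for the transcription factor CDX2 in wild-type villus epithelium of the mouse jejunum were compared between the 2 libraries made for that group. Every peak in both deposited lists was taken, 12121 in library 1 and 7441 in library 2, or 19562 of the 57382 peaks in the 5 lists of factor binding in the series. A peak was called shared where it overlapped a peak of the other library by 1 bp or more. All other peaks were called library 1 only or library 2 only. Library 1 is the sample whose title carries no number, and library 2 the sample whose title ends in 2. Each measurement came from chromatin immunoprecipitation and sequencing (ChIP-seq), in which DNA bound by a protein is pulled down with an antibody and mapped.

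The series profiled CDX2 in wild type and in mice lacking Hnf4a (Hnf4a KO), HNF4A in wild type and in mice lacking Cdx2 (Cdx2 KO), and the histone mark H3K4me2 in wild type and knockouts. Wild-type CDX2 had 2 libraries, and each other group used here had 1. Every group used here carried the same strain label, 129xC57BL6 mixed background, and all CDX2 libraries name the same antibody and lot. The labels say that a library was built from several ChIP experiments pooled, and not whether the wild-type libraries came from separate animals. How and in which cells the genes were deleted, and the age of the mice, are not stated in the labels.

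CDX2 is a homeodomain transcription factor that sets and keeps intestinal identity, and in enterocytes it binds many distal enhancers. HNF4A, a nuclear receptor of absorptive enterocytes, binds many enhancers of the same cells. H3K4me2, dimethylation of lysine 4 on histone H3, marks nucleosomes at enhancers and promoters. At a bound enhancer the marked nucleosomes tend to stand on either side of the factor, with few at the centre. The following features were therefore read at each CDX2 peak: a wild-type H3K4me2 nucleosome centred within 1 kb of the peak midpoint (called marked here), an overlapping wild-type HNF4A peak, and an overlapping CDX2 peak in Hnf4a KO. The last is a further CDX2 library, though from another genotype.

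Shared peaks were a minority of both full lists, though not of the strongest library 2 peaks. They made up 1584 of 12121 library 1 peaks, or 13.1%, and 1596 of 7441 library 2 peaks, or 21.4%. With both lists limited to scores from 60 up the library 2 share was 32.6%. From 100 up it was 68.7% of 470 peaks, beside 11.2% of 2885 in library 1. Of the 1596 overlapping pairs, 1324 (83.0%) had the library 2 peak wholly inside the library 1 peak, and the median distance between midpoints was 67 bp. Borderline overlaps were few, since 11 pairs overlapped by under 50 bp. Just outside the rule, 180 library 1 only peaks and 99 library 2 only peaks lay within 1 kb of a peak of the other library.

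The score in column 5 of the lists was higher in shared peaks than in unshared ones within each list. Its median was 115 for shared and 68.0 for unshared peaks of library 1, and 72.3 and 56.6 in library 2. No label or header says what the score stands for. Medians and quintiles read it within a list, while the common thresholds and score bands apply 1 scale to both lists. Lists were split into quintiles of score, each with 1 of 5 equal parts of the peaks. In the highest quintile of library 1, 35.4% of peaks were shared, against 3.09% of the lowest. In library 2 the same shares were 54.6% and 9.74%. Sharing thus went with score in both lists. Peaks in the highest quintile of library 2 were found in library 1 more often than the reverse, but library 1 is the longer list. Among the 3000 highest peaks of each list the shares were 24.7% in library 1 and 24.8% in library 2.

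Widths separated the lists more than the classes. Library 1 only peaks had a median width of 561 bp and shared library 1 peaks 643 bp, whereas library 2 only peaks had 245 bp and shared library 2 peaks 305 bp. A wider peak overlaps others more easily, so the shares below were also computed with every peak replaced by 200 bp around its midpoint.

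H3K4me2 set the unshared peaks of the 2 libraries apart. Of shared sites, 1198 of 1584 by library 1 peaks (75.6%, 95% interval 73.4 to 77.7) and 1206 of 1596 by library 2 peaks (75.6%, 73.4 to 77.7) were marked. The mark was found in 5831 of 10537 library 1 only peaks, or 55.3% (54.4 to 56.3). It was found in 853 of 5845 library 2 only peaks, or 14.6% (13.7 to 15.5). Over whole lists, 58.0% of library 1 and 27.7% of library 2 peaks were marked. Of the 5768 CDX2 peaks in Hnf4a KO, 26.8% were marked, close to library 2. For scale, 6.55% of the length of the chromosomes lay within 1 kb of a wild-type H3K4me2 nucleosome centre.

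The difference between library 1 only and library 2 only peaks was 40.7 percentage points (Newcombe interval 39.4 to 42.0), and it had the same direction on 19 of 19 autosomes. On single autosomes the marked share ran from 43.4% to 68.8% for library 1 only peaks and from 10.8% to 20.6% for library 2 only peaks, so the ranges did not overlap. Shared peaks exceeded unshared ones by 20.3 points (17.9 to 22.6) in library 1 and by 61.0 points (58.6 to 63.2) in library 2. All such intervals cover counting error only and treat peaks as separate observations, which neighbouring peaks are not. With 1 H3K4me2 library the mark itself has no replicate check.

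Marked peaks also differed in how much mark they carried. A marked library 1 only peak had a mean of 3.95 nucleosomes within 1 kb, a marked shared peak 3.73 by library 1 peaks and 3.72 by library 2 peaks, and a marked library 2 only peak 3.03. At least 4 nucleosomes were called at 29.4% (28.5 to 30.3) of library 1 only peaks, 36.8% (34.4 to 39.2) of shared library 1 peaks and 5.10% (4.55 to 5.69) of library 2 only peaks.

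**Figure D1:**
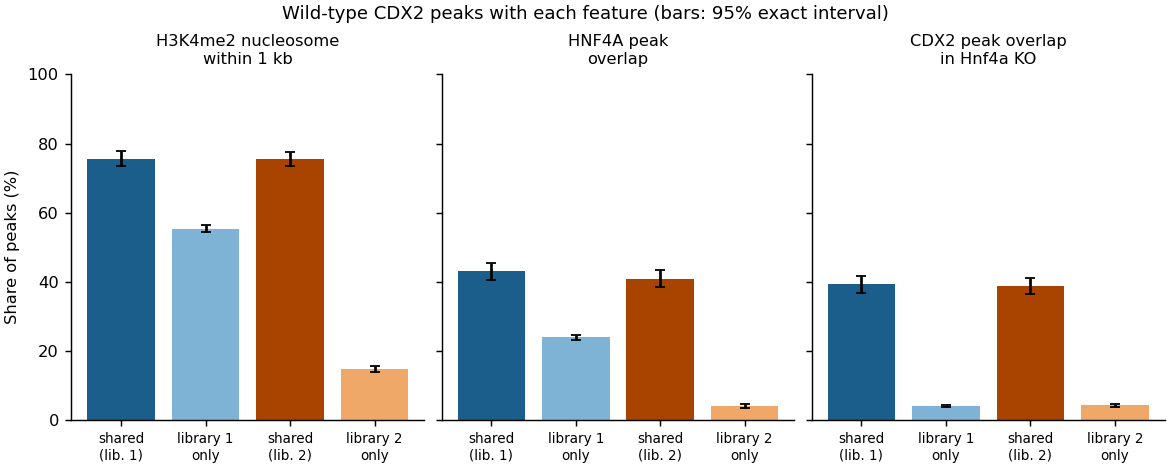
Share of wild-type CDX2 peaks (%, vertical axis) that had a wild-type H3K4me2 nucleosome within 1 kb, overlapped a wild-type HNF4A peak or overlapped a CDX2 peak in Hnf4a KO, for shared and unshared peaks of both libraries, with exact 95% intervals. Library 1 only peaks stand at 55.3% marked and 23.8% with HNF4A, library 2 only peaks at 14.6% and 3.93%, and both at about the same low level, 4.00% and 4.14%, for the Hnf4a KO list.

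HNF4A followed the same order. It overlapped 682 of 1584 shared library 1 peaks (43.1%, 40.6 to 45.5) and 651 of 1596 shared library 2 peaks (40.8%, 38.4 to 43.3). Of the unshared peaks, 2512 of library 1 (23.8%, 23.0 to 24.7) and 230 of library 2 (3.93%, 3.45 to 4.47) overlapped HNF4A. Whole lists had 26.4% in library 1 and 11.8% in library 2. The share in library 1 only exceeded that in library 2 only peaks by 19.9 points (18.9 to 20.9), again on 19 of 19 autosomes. For scores from 100 up, with 147 library 2 only peaks left, the difference was 7.49 points and its interval included 0 (−0.619 to 14.7). With all peaks set to 200 bp the shares were 18.4% and 4.34%, a difference of 14.0 points (13.1 to 14.9).

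At CDX2 peaks HNF4A lay mostly in marked chromatin, while 77.3% of all 22376 wild-type HNF4A peaks were marked. Of CDX2 peaks with HNF4A, 95.5% were marked among shared library 1 peaks, 95.1% among library 1 only peaks and 82.6% (77.1 to 87.3) among library 2 only peaks. Among marked peaks alone, HNF4A overlapped 54.3% (51.5 to 57.2) of shared library 1 peaks, 41.0% (39.7 to 42.2) of library 1 only peaks and 22.3% (19.5 to 25.2) of library 2 only peaks. Unmarked peaks had HNF4A at 8.03%, 2.63% and 0.801%. The order of the classes was therefore the same with and without the mark.

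The further CDX2 library drew a different line. A CDX2 peak of Hnf4a KO overlapped 621 of 1584 shared library 1 peaks (39.2%, 36.8 to 41.7) and 618 of 1596 shared library 2 peaks (38.7%, 36.3 to 41.2). It overlapped 422 of 10537 library 1 only peaks (4.00%, 3.64 to 4.40) and 242 of 5845 library 2 only peaks (4.14%, 3.64 to 4.68). Over whole lists the shares were 8.60% and 11.6%. The difference between the unshared classes was −0.135 points (−0.785 to 0.485), and library 1 only was the higher on 10 of 19 autosomes. Shared peaks exceeded unshared ones by 35.2 points (32.8 to 37.7) in library 1 and by 34.6 points (32.2 to 37.0) in library 2. Between the unshared classes the sign turned with the lists used. It was 2.42 points (0.618 to 4.23) when each wild-type list was limited to its top 3000 peaks and −7.61 points (−13.5 to −3.80) when every CDX2 list was limited to scores from 100 up.

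Unshared peaks that reappeared in Hnf4a KO scored higher in their own list. Their median was 92.6 against 67.3 for the other library 1 only peaks, and 63.8 against 56.6 for library 2 only. Such library 1 only peaks were marked in 66.1% (61.4 to 70.6) of cases against 54.9% (53.9 to 55.9) of those absent from the Hnf4a KO list. For library 2 only peaks the shares were 24.8% (19.5 to 30.7) and 14.2% (13.3 to 15.1). A library 2 only peak found again in a further CDX2 library was thus less often marked than a library 1 only peak that was not.

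**Figure D2:**
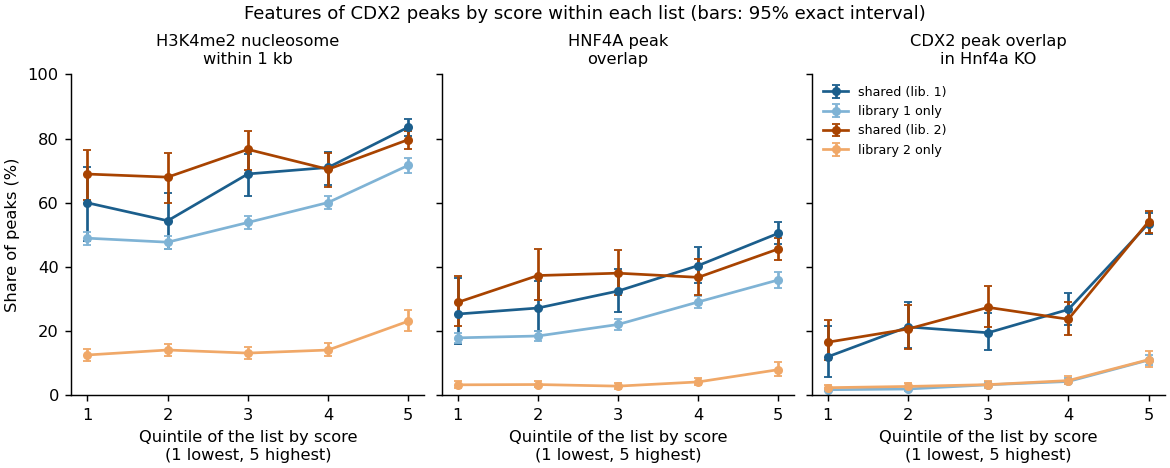
Share of CDX2 peaks (%, vertical axis) with each of the 3 features, by quintile of the peak score within each list (horizontal axis, 1 lowest to 5 highest), with exact 95% intervals. In the highest quintile library 1 only peaks reach 71.7% marked and library 2 only peaks 23.1%, while in the Hnf4a KO panel both unshared lines lie together, at 11.0% and 11.1%.

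Features went with score in the unshared peaks of library 1, above the second quintile. From the lowest to the highest quintile of scores, marked library 1 only peaks went from 49.0% (46.9 to 51.0) to 71.7% (69.4 to 73.9) by way of 47.7% in the second, and those with HNF4A from 17.9% to 36.0%. Library 2 only peaks stayed between 12.6% and 14.1% marked in the 4 lower quintiles and stood at 23.1% (20.0 to 26.5) in the highest. Even the lowest quintile of library 1 only peaks was marked more often than the highest quintile of library 2 only peaks. The shared peaks in the lowest quintile of library 2 were marked in 69.0% (60.8 to 76.4) of 145 cases, beside 12.6% (10.9 to 14.5) of 1344 unshared peaks with scores in the same range. Among weak library 2 peaks, being found in library 1 went with the mark far more than the score did.

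Peaks of like width and score were then set side by side, since library 1 peaks were wider. Bands of width (under 300, 300 to under 600, 600 bp or more) and of score (under 60, 60 to under 80, 80 or more) gave 5 cells with at least 20 peaks of each unshared class. All peaks of 600 bp or more were left out, 4422 of library 1 only and 38 of library 2 only. Peaks under 300 bp scoring under 60 were left out too, and with them most of the 4652 library 2 only peaks under 300 bp. The mark was more frequent in library 1 only peaks in 4 of the 5 cells by an interval that left out 0, with differences over the 5 from 1.69 to 16.9 points. At 300 to under 600 bp and 60 to under 80, the shares were 39.6% of 2097 library 1 only peaks and 22.7% of 480 library 2 only peaks. The exception was narrow peaks with high scores (under 300 bp, 80 or more), with 23.9% of 109 and 22.2% of 176, a difference of 1.69 points (−8.01 to 12.1). For HNF4A, 2 of the 5 cells were higher in library 1 only. Overlap with Hnf4a KO ran the other way, being lower in library 1 only peaks in 4 of the 5 cells. In the narrow, high-scoring cell it was 1.83% of library 1 only and 18.2% of library 2 only peaks. Within these 5 cells the gap in H3K4me2 was thus smaller than the 40.7 points seen over all unshared peaks. A score does not have to mean the same in both lists.

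Library 2 only peaks differed by their distance from the other list. The 99 library 2 only peaks within 1 kb of a library 1 peak were marked in 71.7% of cases, close to the shared peaks. Windows of 1 kb around such neighbours overlap and can hold the same nucleosomes. Part of the marked share at this distance is thus built in, for library 1 only peaks as well. Those over 1 to 10 kb away were marked in 32.9% of 590 cases, those over 10 to 100 kb away in 15.2% of 2575 and those over 100 kb away in 7.63% of 2581, the last near the 6.55% of chromosome length that lies near a nucleosome. HNF4A overlap was lower in the same order, at 20.2%, 11.7%, 4.19% and 1.28%. Overlap with Hnf4a KO did not, at 6.06%, 3.73%, 3.50% and 4.80%. Library 1 only peaks went from 81.1% marked within 1 kb of a library 2 peak to 46.4% of 4560 peaks over 100 kb away. The median distance to the other list was 79.2 kb for library 1 only and 80.6 kb for library 2 only peaks.

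The arrangement of nucleosomes around the midpoints was compared next. At shared sites centred on library 2 peaks, 29.6 nucleosome centres per 100 peaks lay in the 100 bp bin with the most, 100 to 200 bp from the midpoint, and a mean of 13.3 in the 2 central bins, so the centre held 0.449 of the highest bin. Centred on the wider library 1 peaks, the same sites had 24.7 and 18.5, a ratio of 0.746. Around library 1 only peaks these were 16.5 and 14.7, a ratio of 0.892, above an outer level of 4.96 per bin more than 1.5 kb away. Library 2 only peaks had 3.15 and 3.13 over an outer level of 1.61, with no central dip. Among marked peaks, nucleosomes stood on both sides (100 to 500 bp from the midpoint) at 60.2% (57.4 to 63.0) of shared library 2 peaks, 56.9% (54.1 to 59.8) of shared library 1 peaks, 53.5% (52.2 to 54.8) of library 1 only peaks and 29.7% (26.6 to 32.8) of library 2 only peaks. In this paired arrangement marked library 1 only peaks stood near the shared ones, and marked library 2 only peaks stood apart. With no nucleosome centre under 100 bp from the midpoint also required, the shares were lower. They were 42.3% of shared library 2, 31.9% of shared library 1, 26.1% of library 1 only and 13.95% of library 2 only peaks. The intervals of shared library 1 and library 1 only peaks did not overlap. Peaks with 1 nucleosome cannot be flanked on both sides. These were 940 of 5831 marked library 1 only peaks and 271 of 853 marked library 2 only peaks.

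**Figure D3:**
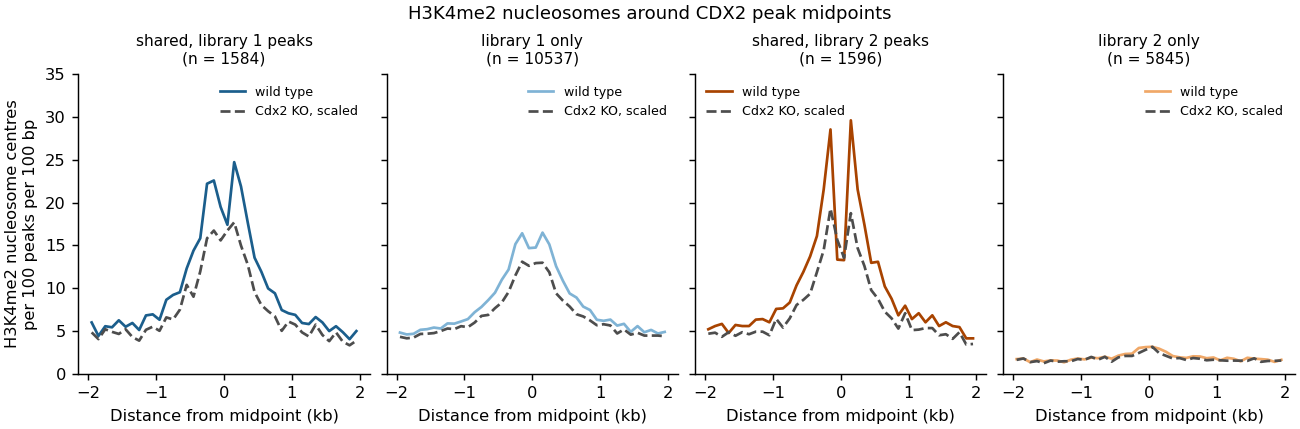
H3K4me2 nucleosome centres per 100 peaks in 100 bp bins (vertical axis) by distance from the CDX2 peak midpoint (kb, horizontal axis), in wild type (solid) and in Cdx2 KO scaled to the length of the wild-type list (dashed). Shared library 2 peaks show 2 flanking maxima with a dip to 13.3 between them in wild type, library 1 only peaks a broad rise to 16.5, and library 2 only peaks a low rise to 3.15.

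H3K4me2 in Cdx2 KO gave a measure that none of the classes had used. Counts within 1 kb were scaled by the number of nucleosomes in each list. Around shared library 1 peaks the unscaled mean went from 2.82 nucleosomes per peak in wild type to 2.19 in Cdx2 KO, a scaled ratio of 0.745 (0.712 to 0.779). Around library 1 only peaks it went from 2.19 to 1.85, with a ratio of 0.810 (0.794 to 0.825). Library 2 only peaks went from 0.443 to 0.414, with a ratio of 0.895 (0.847 to 0.947). HNF4A peaks with no CDX2 peak in either library, taken as bound sites without called CDX2, had 0.888 (0.878 to 0.899).

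The ratio of library 1 only peaks was 0.911 (0.891 to 0.932) times that of HNF4A peaks without CDX2, whereas for library 2 only peaks this quotient was 1.01 (0.952 to 1.07). Against shared peaks of the same list, library 1 only peaks had a ratio 1.09 (1.04 to 1.14) times as high and library 2 only peaks 1.20 (1.12 to 1.29) times. These ratios pool sites with different numbers of wild-type nucleosomes. Bands of the observed wild-type count were therefore compared. That count is also the denominator of the ratio, so its counting error enters each band, and sites with none are left out. Library 1 only peaks stayed below HNF4A peaks without CDX2 at 1 nucleosome (quotient 0.712, 0.633 to 0.800) and at 2 to 3 (0.846, 0.802 to 0.892). At 4 to 6 the quotient was 0.923 (0.893 to 0.954), and at 7 or more it was 0.963 (0.925 to 1.00). For library 2 only peaks the same quotients were 0.903 (0.751 to 1.09), 0.897 (0.798 to 1.01), 1.00 (0.918 to 1.09) and 0.953 (0.840 to 1.08), all with intervals that included 1.

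The differences among the CDX2 classes were mostly not called within these bands of wild-type count. Library 1 only against shared peaks gave 1.46 (1.11 to 1.90) at 1 nucleosome, and then 1.06 (0.954 to 1.18), 1.07 (0.994 to 1.15) and 1.06 (0.966 to 1.16). Library 2 only against library 1 only peaks gave 1.27 (1.04 to 1.55) at 1 nucleosome, and then 1.06 (0.938 to 1.20), 1.08 (0.992 to 1.19) and 0.989 (0.870 to 1.13). In these contrasts the interval left out 1 only at sites with 1 nucleosome in wild type. Library 2 only against shared library 2 peaks gave 1.82 (1.35 to 2.46), 1.12 (0.965 to 1.30), 1.15 (1.03 to 1.28) and 1.05 (0.903 to 1.22). There the interval left out 1 at 1 nucleosome and at 4 to 6. Each genotype had 1 H3K4me2 library, so these are differences between 2 libraries and have no replicate check.

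Peak score went with this measure in library 1 only peaks. The highest quintile of library 1 held 1565 unshared peaks with a ratio of 0.751 (0.719 to 0.784), beside 0.753 (0.712 to 0.797) for the 859 shared peaks of that quintile, a quotient of 0.997 (0.929 to 1.07). In the lower quintiles, library 1 only peaks had 0.824 (0.807 to 0.842) and shared ones 0.731 (0.680 to 0.786), a quotient of 1.13 (1.05 to 1.22). Library 2 only peaks had 0.817 in the highest quintile and 0.913 in the others, a quotient of 0.894 whose interval included 1 (0.773 to 1.03). They differed by HNF4A overlap. The 230 with HNF4A had 0.796 (0.714 to 0.886) and the 5615 without had 0.936 (0.876 to 0.999), a quotient of 0.850 (0.751 to 0.964). In library 1 only peaks the same values were 0.805 and 0.814, with a quotient of 0.989 (0.952 to 1.03). Starting counts were not held alike in these subsets. Library 2 only peaks had 3.24 wild-type nucleosomes per peak with HNF4A and 0.328 without, and library 1 only peaks 4.24 and 1.55.

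**Figure D4:**
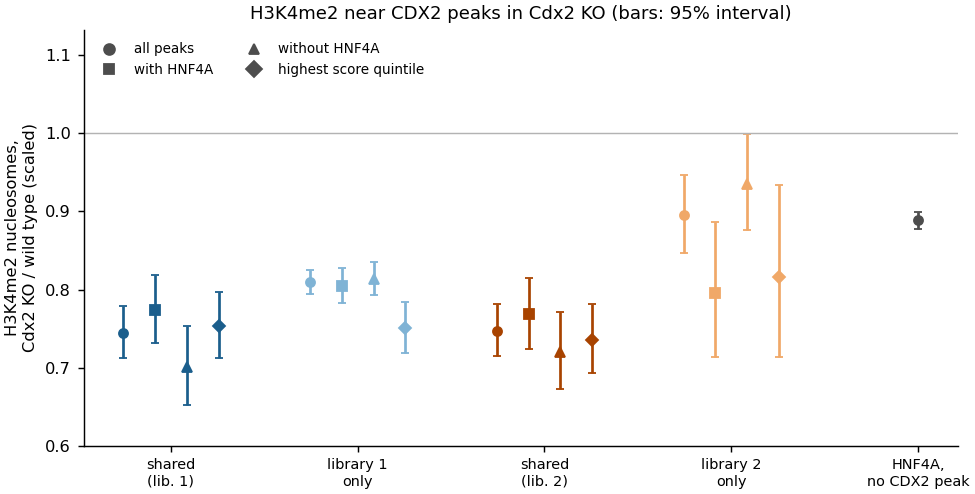
Scaled ratio of H3K4me2 nucleosomes within 1 kb, Cdx2 KO over wild type (vertical axis, starting at 0.6), for each class of CDX2 peak, for subsets with and without HNF4A and of the highest score quintile, and for HNF4A peaks without CDX2, with 95% intervals. Library 1 only peaks of the highest quintile (0.751) lie with the shared peaks (0.745 overall), and library 2 only peaks without HNF4A (0.936) lie closest to 1.

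Loss at shared sites was uneven across the site. Around shared library 2 peaks, nucleosomes in the flanks (100 to 300 bp from the midpoint) had a Cdx2 KO ratio of 0.664 (0.614 to 0.717), while those within 100 bp of the midpoint had 1.10 (0.961 to 1.25). The quotient of centre over flanks was 1.65 (1.42 to 1.92). Centred on library 1 peaks, the same sites had 0.876 (0.777 to 0.986) at the centre and 0.714 (0.659 to 0.773) in the flanks, a quotient of 1.23 (1.07 to 1.41). For library 1 only peaks, which have the same kind of midpoint, the centre had 0.868 (0.825 to 0.914) and the flanks 0.782 (0.755 to 0.811), a quotient of 1.11 (1.04 to 1.18). At library 2 only peaks the quotient was 1.14, with an interval that included 1 and ended at 1.38. The split into centre and flanks was chosen after the profile was seen.

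HNF4A binding in Cdx2 KO gave overlapping intervals for the unshared classes. HNF4A peaks were called again in Cdx2 KO at 36.4% (34.6 to 38.2) of the 2708 lying at library 1 only peaks, 31.9% (25.9 to 38.3) of the 232 at library 2 only peaks, 33.3% (29.9 to 36.8) of the 760 at shared sites and 29.1% (28.4 to 29.7) of the 18676 without CDX2. Their median HNF4A scores were 120.7, 101.9, 129.8 and 76.3. Higher HNF4A scores went with being called again, so classes were also set side by side within quintiles of that score. In the highest, 68.5% (65.4 to 71.5) of 921 HNF4A peaks at library 1 only peaks were called again, against 76.0% (74.5 to 77.5) of 3186 without CDX2 and 64.8% (59.1 to 70.3) of 293 at shared sites. In the next, the shares were 30.4% (27.0 to 33.9), 40.8% (39.2 to 42.4) and 22.1% (16.3 to 28.8). In the middle quintile they were 16.8% (13.5 to 20.5), 21.8% (20.5 to 23.2) and 8.16% (4.29 to 13.8). Across these 3 quintiles HNF4A at library 1 only peaks was called again less often than HNF4A without CDX2. In the lowest 2 quintiles the intervals of these classes overlapped. At library 2 only peaks no quintile held more than 75 HNF4A peaks.

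Read from the side of the Hnf4a KO list, strong CDX2 peaks were mostly at shared sites where they matched wild type at all. Of the 1154 highest-scoring Hnf4a KO peaks, 387 (33.5%) lay at shared sites, 120 (10.4%) at library 1 only peaks and 76 (6.59%) at library 2 only peaks. The other 571 (49.5%) matched no wild-type peak. In the lowest quintile the shares were 3.29%, 5.11% and 3.03%, and 88.6% matched none. Over the whole Hnf4a KO list, 4476 of 5768 peaks (77.6%) matched no wild-type peak, and 15.9% of those were marked. Library 1 only peaks thus were the most frequent match of the weakest Hnf4a KO peaks, from a list with more unshared peaks.

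The 3 features were combined to find the unshared peaks with the most of them. All 3 were present at 269 of 1584 shared library 1 peaks (95% interval 15.2% to 18.9%), 119 library 1 only peaks (1.13%, 0.936 to 1.35) and 8 library 2 only peaks (0.137%, 0.0591 to 0.270). None was present at 231 shared library 1 peaks (14.6%), 4449 library 1 only peaks (42.2%, 41.3 to 43.2) and 4773 library 2 only peaks (81.7%, 80.6 to 82.6). The commonest combination with support in library 1 only peaks was the mark alone (3283), followed by the mark with HNF4A (2269). In library 2 only peaks the mark alone (611) was again the commonest, followed by the mark with HNF4A (182) and Hnf4a KO overlap alone (179). Median width was greater with more features in library 1 only peaks, from 489 bp with none to 775 bp with all 3, and median score from 63.8 to 106. A longer peak can meet an HNF4A or CDX2 peak more easily, so part of this order with width is built in.

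**Figure D5:**
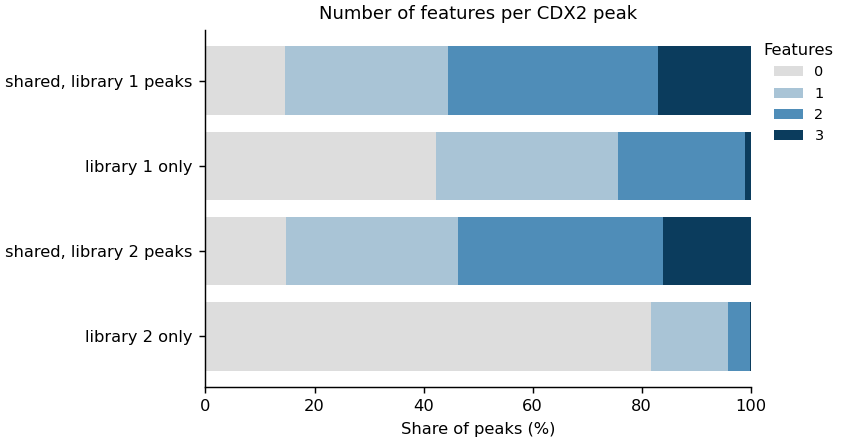
Share of CDX2 peaks (%, horizontal axis) with 0, 1, 2 or 3 of the features (H3K4me2 nucleosome within 1 kb, HNF4A overlap, Hnf4a KO overlap), by class. Peaks with none make up 14.6% of shared library 1 peaks, 42.2% of library 1 only peaks and 81.7% of library 2 only peaks.

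Single sites are given in build mm9. They are named by position, because no gene annotation of that build was used here, and for the same reason the tissue label was not checked against marker genes. The highest-scoring library 1 only peak with all 3 features lay at chr10:21392495-21393250, with a CDX2 score of 455.2, an HNF4A score of 337.5 and an Hnf4a KO score of 83.8. Wild type had 2 marked nucleosomes near it, and Cdx2 KO had 0, and the nearest library 2 peak was 0.426 kb away. Next came chr17:84555699-84556778 (CDX2 412.3, HNF4A 318.5), where 9 nucleosomes in wild type stood beside 10 in Cdx2 KO. A peak at chr8:109162098-109162880 (297.6) had 5 and 4, one at chr19:36364931-36365907 (280.8) had 2 and 1, and one at chr10:70811366-70813357 (270.6) had 8 and 9. At 2 of these 5 sites more nucleosomes were called in Cdx2 KO than in wild type, and at 3 fewer.

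Among the 8 library 2 only peaks with all 3 features, the highest score was 134.4, on chromosome 18, with 3 nucleosomes in wild type and 1 in Cdx2 KO. A peak at chr3:21887092-21887418 (133.9) and a peak at chr2:158003902-158004293 (113.3) both had 6 nucleosomes in wild type and 5 in Cdx2 KO, and HNF4A scores of 205.9 and 383. The former lay 0.978 kb from a library 1 peak. At chr14:70787222-70787788 (91.1), 2 nucleosomes were called in each genotype, and a library 1 peak lay 1.27 kb away. The site at chr2:98506344-98507496 stood apart, with a library 2 score of 94.2 beside 448.8 in Hnf4a KO and an HNF4A score of 1160, while 1 nucleosome was called in wild type and 2 in Cdx2 KO.

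The 5 highest library 1 only peaks lacked the mark, although marked shares were higher in the upper quintiles of score. They scored 656 to 787, were 1132 to 5353 bp wide and had no nucleosome called within 1 kb of the midpoint in either genotype. In peaks wider than 2000 bp that window lies wholly inside the peak, so their edges and flanks were not searched. Their positions were chr13:59662455-59663586, chr14:42299037-42304389, chr9:3003772-3007673 and chr9:3025321-3029856, and chr12:18878194-18880014. Only the second of the chromosome 9 pair overlapped an HNF4A peak (77.2). A further peak without any feature, at chr13:65612809-65614462, scored 576.9. Of the 50 highest library 1 only peaks, 23 had no feature, with a median width of 2325 bp, a share near the 42.2% of the whole class. Of the 200 highest, 52 had none and 138 were marked. Of 34 library 1 only peaks at least 2000 bp wide, 11 were marked, against 491 of the 634 at least 1000 bp wide.

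In library 2 the highest unshared scores fell differently. The top peak lay at chr2:171544410-171544724, was 315 bp wide and scored 384.6, with 335.1 in Hnf4a KO. It had 4 nucleosomes in wild type and 0 in Cdx2 KO. Peaks at chr9:31259680-31260070 (250.1) and chr15:6269354-6269672 (232.6) were also called in Hnf4a KO, with 88.0 and 54.6, and went from 3 nucleosomes to 1 and from 1 to 0. None of the 3 overlapped HNF4A. The next, at chrY:2850282-2854766 (221.8), was 4485 bp wide and was called in Hnf4a KO (116.5). Another, on chromosome 18, scored 219.4 and had no feature. Of the 20 highest library 2 only peaks, 13 were called in Hnf4a KO, against 5 of the 20 highest library 1 only peaks. Further down the contrast was smaller, with 26.5% and 19.5% of the 200 highest, 11.1% and 11.0% of the highest quintile, and 4.14% and 4.00% of the whole classes.

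After the chromosome 18 peak, the next highest library 2 only peak with no feature scored 139.5, at chr5:98803990-98804383, and lay 1.08 kb from a library 1 peak. Others lay at chr11:112687795-112688123 (135.2), chr7:117541351-117541640 (131.5) and chr13:109459554-109459818 (131.1). The 5 highest without features, the chromosome 18 peak among them, were 265 to 394 bp wide, whereas the 5 such library 1 peaks were 1132 to 5353 bp wide.

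The shared sites with the highest mean scores give the level against which these stand. The highest, at chr12:16758955-16759834, scored 933.2 and 429.9 in the 2 libraries and went from 7 nucleosomes in wild type to 6 in Cdx2 KO. At chr9:121456252-121457194 (638 and 614.2), nucleosomes went from 4 to 0, and at chr3:101588470-101589270 (635.6 and 413.9) from 3 to 0. A site at chr5:99439370-99440648 (767.2 and 347.8) went from 5 to 2. The site at chr6:149405745-149406535 scored 733.8 and 298.6 with no nucleosome in either genotype, so a strong shared peak could also lack the mark. All 5 were called in Hnf4a KO, and 2 overlapped HNF4A.

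Chromosome X held 109 library 1 peaks (0.899% of the list) and 31 library 2 peaks (0.417%). Chromosome Y held 17 library 2 peaks (0.228%), beside 2 library 1 peaks and 19 peaks in Hnf4a KO. None of the 17 was shared, 10 were called in Hnf4a KO and 7 were marked. Over all of library 2, 21.4% of peaks were shared, 11.6% were called in Hnf4a KO and 27.7% were marked. Without chromosome Y, library 1 only minus library 2 only was 40.8 points for H3K4me2 and 19.9 for HNF4A. For Hnf4a KO overlap it was 0.0249 (−0.617 to 0.638).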

How the data were processed

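For each library the authors deposited 1 peak list, with positions and a score per peak of at least 50 in both wild-type CDX2 lists. Peaks are named after MACS, a peak caller, in the deposited lists. Not given in the sources used here are its version, the aligner, the control and what the peak score means. H3K4me2 nucleosomes were deposited with a score that is 10 times the −log10 of a p-value, per the file headers, with a ceiling of 3250. The build is mm9 (per the submitters' processing notes). Positions count from 1. Depth per library is unknown, and list length and scores move with it. The input sample, and H3K4me2 in Hnf4a KO and the double knockouts, were not used here.

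Overlaps of 1 bp or more, nucleosome counts within 1 kb of peak midpoints and score quintiles were computed in Python 3.11.15 with numpy 2.4.6, pandas 2.3.3 and scipy 1.17.1. Shares have exact Clopper-Pearson 95% intervals, differences of shares Newcombe intervals, ratios exact binomial intervals and quotients of ratios normal intervals on the log scale. All cover counting error only, and no p-value was computed, because the comparison is between 2 libraries of 1 group. The functions were tested on simulated data. Named sites were the 5 highest scores among shared peaks and in each unshared class, and in each unshared class the 5 highest with all 3 features and with none. The members, features and lists were chosen with earlier results of these data known. The views by distance, width with score, autosome, centre and flank, and from the HNF4A and Hnf4a KO lists were chosen after seeing the data. No motif search or marker gene check was run, since no sequence or gene annotation of build mm9 was used here. The alternatives were other overlaps, widths, score thresholds, list lengths, windows and scalings.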

Additional observations from a re-analysis of the deposited data

How the results depend on the processing

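Of 36 recomputed differences in H3K4me2 between classes, 36 kept their direction with an interval that left out 0, as did 23 of 24 for HNF4A. The exception was library 1 only minus library 2 only at a CDX2 score of 100 or more, at 7.49 points (−0.619 to 14.7) over 147 library 2 only peaks. All 16 recomputed Cdx2 KO ratios stayed below 1. For Hnf4a KO overlap, 19 of 24 kept direction and call, and all 5 that did not were library 1 only minus library 2 only: −0.886 points with 200 bp peaks, −7.61 for scores from 100 up, 2.42 among the 3000 highest peaks, 1.02 with library 1 at the length of library 2 and 0.0249 without chromosome Y. The cause was not tested. Shares shared, in library 1 and library 2, were 12.0% and 19.6% with 200 bp peaks, 12.4% and 32.6% for scores from 60 up, 11.2% and 68.7% for scores from 100 up, 24.7% and 24.8% among the 3000 highest, and 18.6% and 18.7% with lists of equal length. Score thresholds shorten library 2 more than library 1. The gap in H3K4me2 between the unshared classes ran from 16.5 to 45.1 points over all settings. Leaving out a library would leave nothing to compare. No paired analysis was possible because wild-type CDX2 was the only group with more than 1 library.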
